A study of Mus musculus with 12 samples.

Results

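The genes of mitochondrial fatty acid oxidation described here were Ppara, Cpt1a, Slc25a20, Cpt2, Acadvl, Acadl, Acadm, Hadha, Hadhb and Etfdh. These 10 genes, of 18193 measured, were chosen by name with earlier results of these data known, as were the gene lists below. Shares of all genes set beside the counts of these sets are therefore descriptive and do not test the sets. For the 10 genes, every probe set that the array annotation assigns to any of them alone was taken. There were 20 such probe sets of 45101. For each gene the probe set with the highest mean over the 12 arrays stood for the gene, and the others are given beside it. The samples were whole mouse yolk sacs in 4 groups of 3 arrays: Norrin at embryonic day 10.5 (E10.5), wild type at E10.5, Norrin at E8.5 and wild type at E8.5. The Norrin groups were Z/Norrin mice, in which a conditional allele makes the secreted Frizzled4 ligand Norrin ectopically. The controls were wild type without that modification. All groups shared a mixed C57Bl6/129 background and mixed sex, and each array held RNA pooled from 3 to 5 yolk sacs. No source used here names the Cre driver or the cells that made Norrin. Whole tissue was measured, so fewer cells of a type and less RNA per cell cannot be told apart.

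Mitochondria burn long-chain fatty acids in steps that depend on one another. Cpt1a, on the outer membrane, couples the activated fatty acid to carnitine. The carrier Slc25a20 takes the acylcarnitine across the inner membrane, and Cpt2 turns it back into acyl-CoA. The acyl-CoA dehydrogenases Acadvl, Acadl and Acadm start each round of shortening on very long, long and medium chains, and the trifunctional protein, built from Hadha and Hadhb, finishes the round for long chains. Etfdh passes the electrons of the dehydrogenases to ubiquinone. Ppara, a nuclear receptor for fatty acids, switches on many of these genes in liver. The visceral endoderm of the yolk sac takes up maternal lipid and builds lipoproteins for the embryo.

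The 3 arrays of a group correlated at r = 0.975 to 0.992 across genes. The tissue label was borne out by high levels of the visceral endoderm genes Afp and Ttr. At E10.5 their mean log2 levels were 14.67 and 14.34 in Norrin, against 14.71 and 14.38 in wild type. At E8.5 they were 13.42 and 14.28 in Norrin, against 14.47 and 14.47 in wild type. These levels mark the tissue and do not show equal endoderm in both genotypes. Of 15 measured visceral endoderm markers, 11 had estimates below 0 at E10.5. Within a stage every pair of arrays held 26 to 93 identical values in the same row, and the 36 pairs across stages held 0. Values of the stages are therefore not on a shared normalization, and stage and processing run cannot be told apart. One Norrin E10.5 pool stood apart in markers of trophoblast, a neighbouring placental tissue. The mean log2 level of the 4 measured trophoblast genes was 8.69 in replicate 2, against 5.78 and 5.81 in the other Norrin pools and 5.63 to 6.02 in wild type.

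The promoter windows of the 10 genes were taken from RefSeq on mouse build GRCm38.p6, 250 bases before to 50 after 1 annotated start per gene. They are shown for Cpt2 and Acadl, which passed the test at E10.5, for Cpt1a, the entry step, and for Hadhb, whose window overlaps that of its neighbour Hadha. Capitals mark GGGCGG, the GC box bound by Sp1, and AGGTCA, the hexamer that nuclear receptors bind, on either strand. The windows lie at chr4:107923540-107923839 (Cpt2, minus strand), chr1:66863260-66863559 (Acadl, minus strand), chr19:3323051-3323350 (Cpt1a, plus strand) and chr5:30155003-30155302 (Hadhb, plus strand).
Cpt2: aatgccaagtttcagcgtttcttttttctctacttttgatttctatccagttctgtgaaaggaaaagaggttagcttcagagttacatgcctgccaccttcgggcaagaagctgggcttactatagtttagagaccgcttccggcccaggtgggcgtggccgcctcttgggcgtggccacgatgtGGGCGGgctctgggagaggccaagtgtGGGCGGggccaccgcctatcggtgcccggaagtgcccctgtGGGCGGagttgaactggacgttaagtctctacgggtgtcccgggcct
Acadl: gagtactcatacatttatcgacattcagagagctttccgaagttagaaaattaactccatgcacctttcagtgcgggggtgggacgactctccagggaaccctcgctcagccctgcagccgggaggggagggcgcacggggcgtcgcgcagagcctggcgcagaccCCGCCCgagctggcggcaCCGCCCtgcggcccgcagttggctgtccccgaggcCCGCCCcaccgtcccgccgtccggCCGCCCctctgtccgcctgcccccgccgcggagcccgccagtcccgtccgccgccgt
Cpt1a: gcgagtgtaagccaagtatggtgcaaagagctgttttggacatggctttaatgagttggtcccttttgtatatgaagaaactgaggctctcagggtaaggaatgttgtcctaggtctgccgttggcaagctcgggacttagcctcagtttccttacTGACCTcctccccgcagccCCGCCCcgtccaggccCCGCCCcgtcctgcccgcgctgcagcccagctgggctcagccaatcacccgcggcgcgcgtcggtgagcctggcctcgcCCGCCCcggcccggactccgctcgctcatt
Hadhb: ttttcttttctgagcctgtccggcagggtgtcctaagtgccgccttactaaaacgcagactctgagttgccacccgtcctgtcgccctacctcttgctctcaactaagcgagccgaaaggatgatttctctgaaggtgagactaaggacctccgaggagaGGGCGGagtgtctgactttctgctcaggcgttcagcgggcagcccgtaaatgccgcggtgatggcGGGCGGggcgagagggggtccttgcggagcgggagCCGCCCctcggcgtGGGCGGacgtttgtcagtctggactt
A GC box was found in 8 of the 10 windows, all but Acadm and Acadvl, and in 35.7% of all 32851 windows. The only GC box of Hadha is the same site as the first marked in Hadhb, so both windows count it. The 10 windows held 9 to 34 CG pairs, against a median of 7 over all windows. TATAAA occurred in 0 of 10 and in 13.6% of all windows. AGGTCA occurred in Acadm, Acadvl and Cpt1a, and in 16.3% of all windows. The form that PPAR and RXR bind, 2 copies of AGGNCA in the same direction with 1 base between them, takes in AGGTCA and occurred in 0 of 10 and in 0.381% of all windows. The strings searched as elements of ERR, ETS factors and NRF1 occurred in 0, 0 and 2 of 10 windows, and in 0.423%, 2.30% and 4.60% of all windows. The ETS string had 8 bases, and sites that differ from it at the first base were not counted. Its last 7 bases occur in the windows of Cpt2 and Slc25a20, so the count of 0 holds for the full string only. CTTTGAT, the core bound by the TCF factors of beta-catenin signalling, occurred in 0 of 10 and in 3.73% of all windows. Hadha and Hadhb are transcribed away from each other with 272 bases between the genes, and their windows share 228 bases.

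At E10.5 the carnitine enzyme Cpt2 and the long-chain dehydrogenase Acadl fell in Norrin yolk sacs, to levels 2.05-fold and 1.81-fold lower than wild type. No member rose. The log2 change was below 0 in 9 of 10 members, against 51.0% of all genes, with a median of -0.37 over the members and 0.00 over all genes. By limma with Benjamini-Hochberg adjustment over 18193 genes, 2 of 10 members were lower and 0 higher, against 2.22% and 1.85% of all genes. Same-numbered pools varied together within a stage in these data, which the labels do not explain. With the replicate as a block, 5 of 10 members were lower, against 6.80% of all genes. The other 3 were Ppara, Cpt1a and Slc25a20. The Norrin and wild type pools did not overlap in 6 of 10 members, Norrin being the lower, and the same held for 11.5% of all genes.

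**Figure D1:**
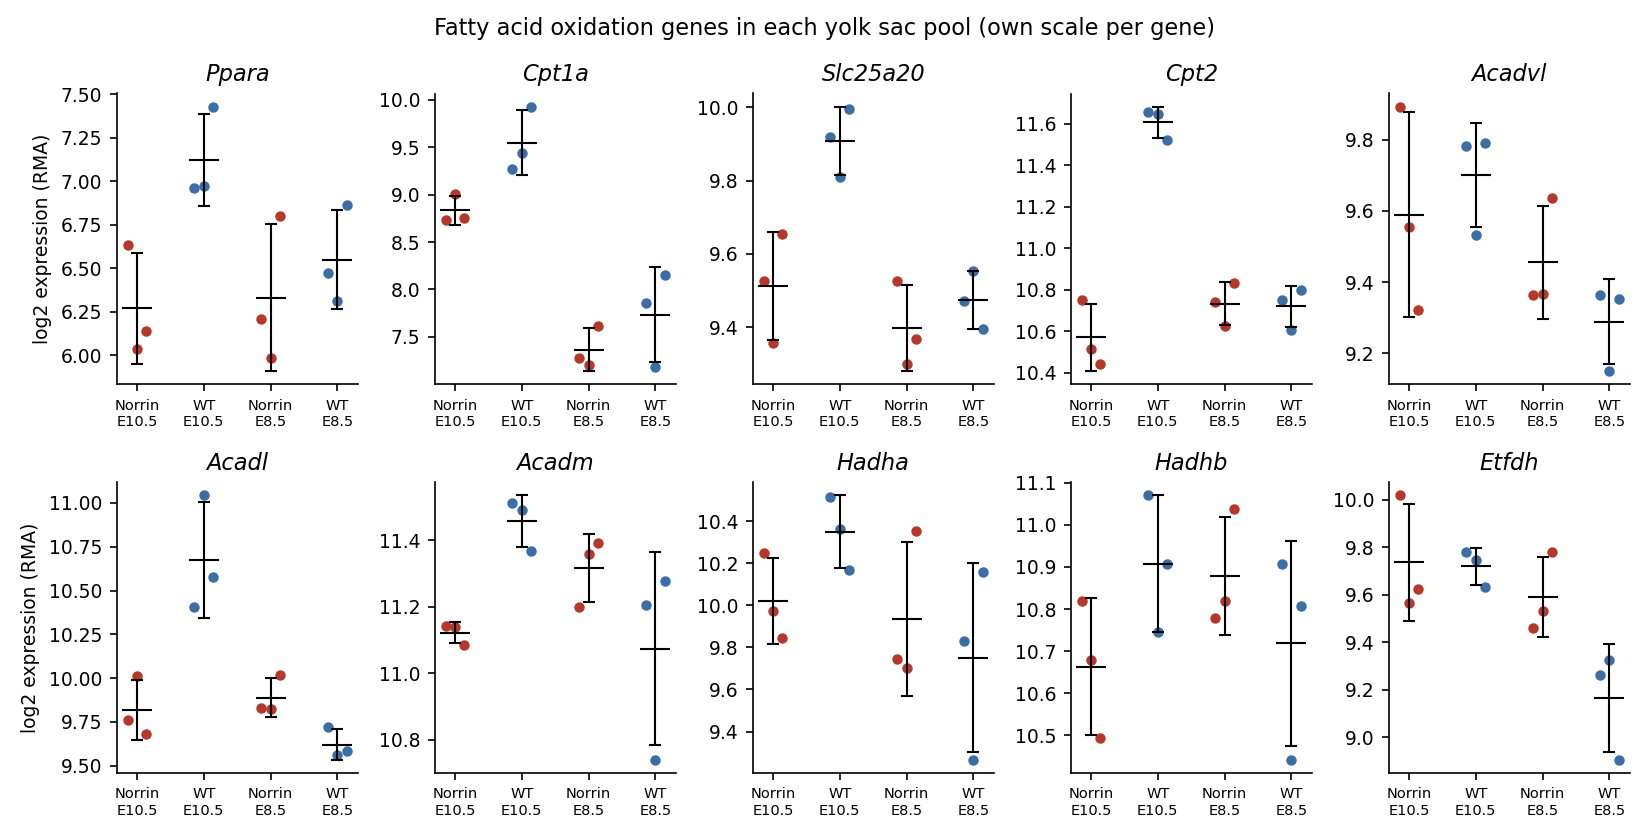
Log2 expression (RMA) of the 10 genes in each yolk sac pool, 1 point per array, with the mean and SD of each group (n = 3) as a bar, Norrin in red and wild type in blue. Each gene has its own scale, so levels compare between Norrin and wild type of a stage, not between genes, and the stages are not on a shared normalization; at E10.5 the Norrin pools of Cpt2 (10.45 to 10.75) lie below all wild type pools (11.52 to 11.65).

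The carnitine shuttle was lower at each of its 3 steps in the estimates. Cpt2 had log2 levels of 10.75, 10.51 and 10.45 in Norrin E10.5, against 11.65, 11.65 and 11.52 in wild type E10.5. The lowest wild type pool lay above the highest Norrin pool, and the change was -1.04 (SE 0.12, adjusted p = 0.00073 by limma). This call held in each of 19 alternatives, with adjusted p from 0.00021 to 0.0067. Cpt1a had levels of 8.74, 9.01 and 8.76 in Norrin, against 9.27, 9.44 and 9.93 in wild type. All Norrin pools lay below all wild type pools, with a change of -0.71 (SE 0.24) that did not pass (adjusted p = 0.149; 0.0224 with the replicate block). Slc25a20 had levels of 9.53, 9.36 and 9.65 in Norrin, against 9.92, 9.81 and 9.996 in wild type. Its groups did not overlap either, and its change was -0.40 (SE 0.12, adjusted p = 0.0947; 0.0217 with the block).

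Among the 3 dehydrogenases Acadvl, Acadl and Acadm the change was largest in Acadl, the long-chain enzyme. Acadl had levels of 9.76, 10.01 and 9.68 in Norrin E10.5, against 10.40, 11.04 and 10.58 in wild type. The Norrin pools all lay below the wild type pools, of which replicate 2 was highest. The change was -0.86 (SE 0.16, adjusted p = 0.0102; 0.0014 with the block). Without Norrin E10.5 replicate 3 the adjusted p was 0.0565, and over the mean of both its probe sets 0.0622 with a change of -0.42. Acadm, the medium-chain enzyme, had levels of 11.14, 11.14 and 11.09 in Norrin, against 11.51, 11.49 and 11.37 in wild type. The groups did not overlap, and the change of -0.34 (SE 0.14) did not pass (adjusted p = 0.283). Acadvl, the very-long-chain enzyme, had 9.89, 9.56 and 9.32 in Norrin, against 9.78, 9.53 and 9.79 in wild type. Its groups overlapped, with a change of -0.11 and a 95% interval of -0.45 to 0.23.

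The later steps gave smaller estimates. Hadha averaged 10.02 ± 0.20 in Norrin E10.5 and 10.35 ± 0.17 in wild type E10.5 (SD, n = 3 each), a change of -0.33 with a 95% interval of -0.83 to 0.17. Its partner Hadhb averaged 10.66 ± 0.16 in Norrin and 10.91 ± 0.16 in wild type, a change of -0.24 with an interval of -0.57 to 0.08. The pools of both subunits overlapped between the groups. Etfdh, the exit of the electrons, averaged 9.74 ± 0.25 in Norrin and 9.72 ± 0.08 in wild type. Its change of 0.02 (interval -0.32 to 0.36) was the 1 estimate above 0.

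Ppara, the receptor upstream of these genes in liver, was read by 3 probe sets. The brightest had levels of 6.63, 6.04 and 6.14 in Norrin E10.5, against 6.96, 6.98 and 7.43 in wild type. The groups did not overlap, and the change was -0.85 (SE 0.24, adjusted p = 0.0709; 0.0093 with the block). A second probe set had 5.36, 5.52 and 5.52 in Norrin, against 6.57, 6.48 and 6.78 in wild type. Its change of -1.14 (SE 0.13) passed in the test of all 34945 probe sets of 1 gene (adjusted p = 0.00097), and the third gave -0.37 (adjusted p = 0.236).

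Other probe sets bore on 6 more genes. Those of Cpt1a, dim ones with means of 5.59 and 4.20, gave -0.84 and -0.83 at E10.5, beside -0.71. The second of these lay near the low end of the scale. The other of Slc25a20 gave -0.60 beside -0.40, and that of Cpt2, a dim one with a mean of 5.99, gave -0.43 beside -1.04. The second probe sets of Acadl and Etfdh lay near the low end of the scale, with means of 4.59 and 3.95, and gave 0.01 and 0.00. For Hadhb the others gave -0.18 and 0.13 beside -0.24. Those other probe sets of Cpt1a, Cpt2 and Slc25a20, and that of Hadhb at -0.18, are of kinds that the maker marks as able to bind more than 1 transcript. Acadm, Acadvl and Hadha had a single probe set each.

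At E8.5 no member passed. Estimates were above 0 for 7 of 10 members, against 46.1% of all genes, with a median of 0.16 over the members and -0.02 over all genes. By limma 0 of 10 were called, against 0.0770% of all genes, and 0 were called with the replicate block, against 1.41%. At an unadjusted p under 0.05 there was 1, Etfdh, against 7.22% of all genes. Etfdh had levels of 9.46, 9.53 and 9.78 in Norrin E8.5, against 9.26, 9.32 and 8.91 in wild type E8.5. All Norrin pools lay above all wild type pools, with a change of 0.43 (SE 0.16, adjusted p = 0.598).

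Acadl was the other member whose E8.5 groups did not overlap, with 9.83, 9.82 and 10.02 in Norrin, against 9.72, 9.56 and 9.58 in wild type. Norrin was the higher group, opposite to E10.5, and the change was 0.27 (SE 0.16, adjusted p = 0.736). Of all genes 5.89% had Norrin pools wholly above wild type at E8.5. Cpt2, which separated the groups at E10.5, had 10.74, 10.63 and 10.83 in Norrin E8.5, against 10.75, 10.61 and 10.80 in wild type E8.5. Its pools overlapped fully, with a change of 0.01 and a 95% interval of -0.24 to 0.27. Ppara, Cpt1a and Slc25a20 gave -0.22, -0.37 and -0.08, with adjusted p of 0.832, 0.741 and 0.889 by limma. Acadm, Acadvl, Hadha and Hadhb gave 0.16 to 0.24.

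**Figure D2:**
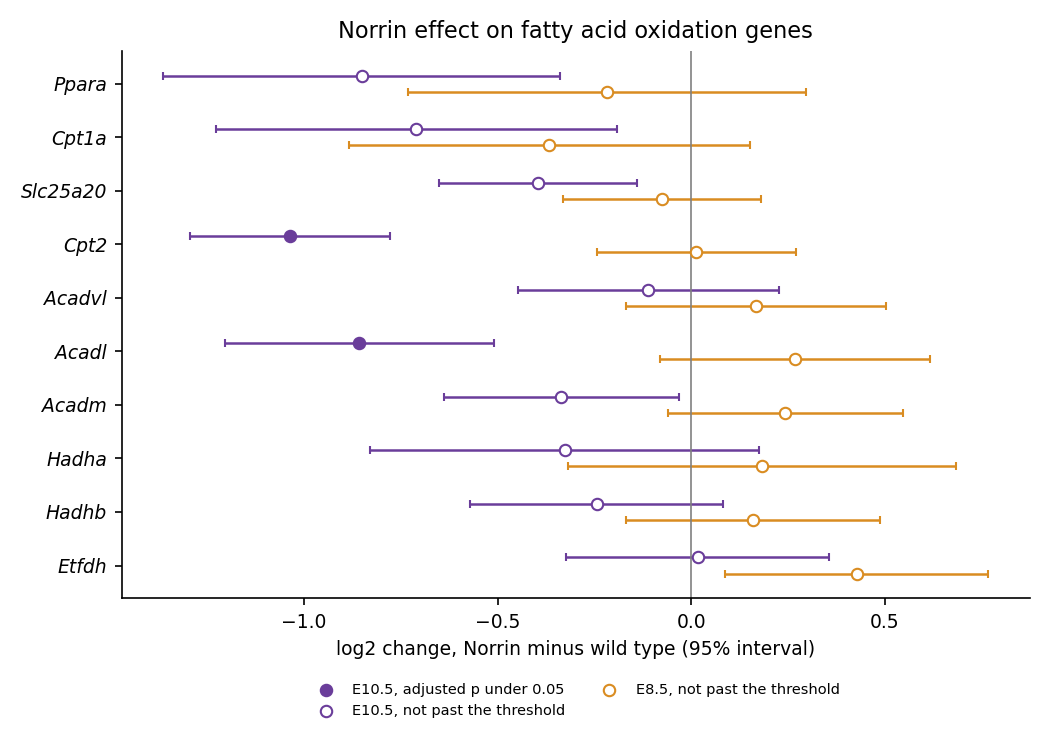
Log2 change, Norrin minus wild type, of each gene at E10.5 (purple) and E8.5 (orange), with 95% intervals from limma on 3 arrays per group, filled where the adjusted p was under 0.05. The filled points are Cpt2 and Acadl at E10.5, and each gene's E10.5 point lies left of its E8.5 point.

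The Norrin effect at E10.5 was lower than at E8.5 in 10 of 10 estimates, against 45.7% of all genes, with a median difference of -0.46 over the members and 0.03 over all genes. By limma's interaction contrast 1 of 10 members passed, Cpt2, against 0.0934% of all genes. Its difference was -1.05 (SE 0.17, adjusted p = 0.0463; 0.0064 with the replicate block). This call was lost when any of 10 of the 12 arrays was left out, the exceptions being wild type E8.5 replicate 3 and Norrin E10.5 replicate 1, and its adjusted p ran from 0.0064 to 0.195 over 18 alternatives. Acadl had the larger difference, -1.12 (SE 0.23), and did not pass (adjusted p = 0.121; 0.0124 with the block, where 2 of 10 members passed against 2.07% of all genes). The remaining 8 members ranged from -0.63 for Ppara to -0.28 for Acadvl.

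Between the stages, 1 of 10 members was higher at E10.5 than at E8.5 in Norrin, and 5 of 10 in wild type. The Norrin call was Cpt1a, and the wild type calls were Cpt1a, Acadl, Cpt2, Etfdh and Slc25a20. By limma 28.2% of all genes were higher at E10.5 in Norrin and 25.4% in wild type. These shares depend on level. Among the 9097 genes at or above the median level, which hold 9 of the members, 1549 were higher in Norrin and 1410 in wild type. Their median change was 0.02 in Norrin and 0.08 in wild type. A single call among 10 members is too few to set against either background. The median change over the members was 0.01 in Norrin and 0.56 in wild type, and over all genes 0.15 in Norrin and 0.14 in wild type. In wild type 10 of 10 estimates were above 0, against 62.1% of all genes, and with arrays centred on their median Hadhb alone was below 0 (-0.09). The difference between the genotypes in these changes is the same quantity as the interaction above, and the comparisons share its arrays.

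Cpt1a had the largest stage change of the members in both genotypes. In Norrin it averaged 8.84 ± 0.15 at E10.5 and 7.36 ± 0.22 at E8.5 (SD, n = 3 each), and was 2.77-fold higher (log2 1.47, SE 0.24, adjusted p = 0.00056 by limma). In wild type it averaged 9.55 ± 0.34 at E10.5 and 7.73 ± 0.50 at E8.5, and was 3.52-fold higher (log2 1.82, SE 0.24, adjusted p = 0.00017). Its other probe sets, dim ones with means of 5.59 and 4.20, gave 2.46 and 1.29 in Norrin, against 2.91 and 1.97 in wild type. The pools of the stages did not overlap in either genotype.

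Cpt2 and Acadl did not pass between the stages in Norrin and rose in wild type. Cpt2 averaged 10.57 ± 0.16 in Norrin E10.5 and 10.73 ± 0.10 in Norrin E8.5 (log2 -0.16, adjusted p = 0.303). In wild type it averaged 11.61 ± 0.07 at E10.5 and 10.72 ± 0.10 at E8.5 (0.89, adjusted p = 0.00019). Acadl averaged 9.82 ± 0.17 in Norrin E10.5 and 9.89 ± 0.11 in Norrin E8.5 (-0.07, adjusted p = 0.761). In wild type it averaged 10.68 ± 0.33 at E10.5 and 9.62 ± 0.09 at E8.5 (1.05, adjusted p = 0.00045). Etfdh gave 0.14 in Norrin and rose by 0.56 in wild type, and Slc25a20 gave 0.12 in Norrin and rose by 0.43 in wild type.

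The stage estimates rest on scaling. With each array centred on its median, the median change of all genes was -0.14 in both genotypes, in place of 0.15 in Norrin and 0.14 in wild type. The share of calls that were higher was then 35.0% in place of 74.4% in Norrin, and 34.7% in place of 78.1% in wild type. Under that scaling Cpt1a was higher in Norrin, against 14.8% of all genes, and Cpt2, Acadm and Hadhb were lower, against 27.5%. In wild type Cpt1a, Cpt2 and Acadl were higher, against 13.5% of all genes, and 0 members were lower. Without centring, changes relative to the median gene were 1.32 for Cpt1a and -0.37 to -0.01 for the other 9 members in Norrin. In wild type they were 1.68 for Cpt1a, 0.92 for Acadl, 0.75 for Cpt2 and 0.05 to 0.46 for the other 7.

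**Figure D3:**
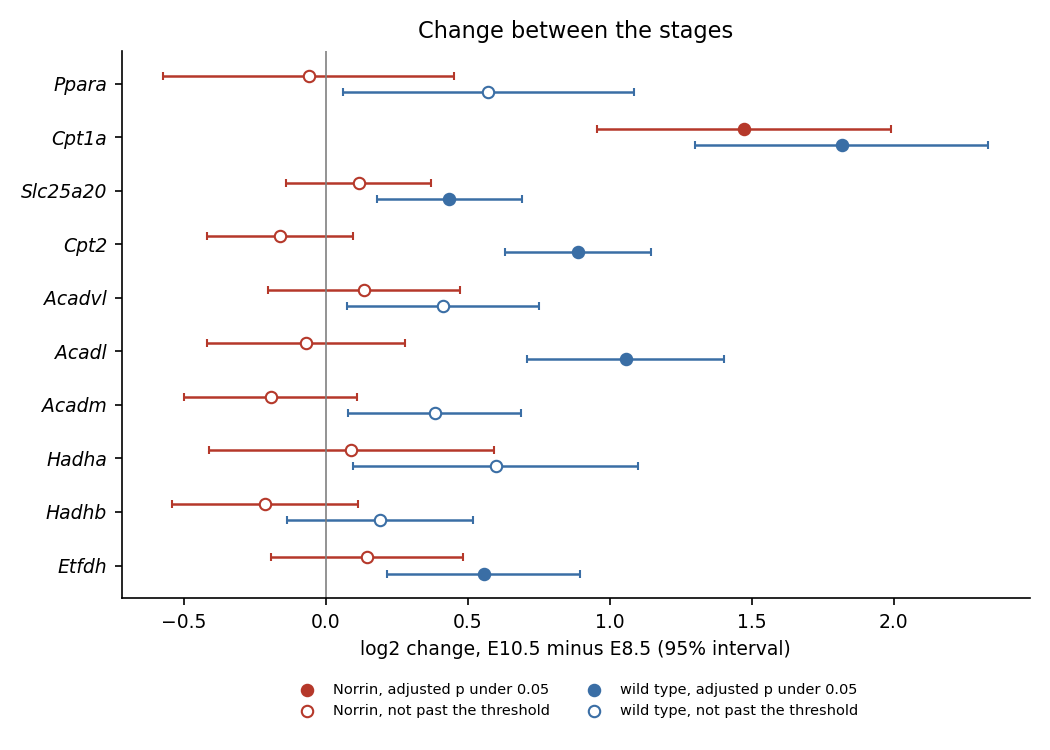
Log2 change, E10.5 minus E8.5, of each gene in Norrin (red) and wild type (blue), with 95% intervals from limma on 3 arrays per group, filled where the adjusted p was under 0.05. Wild type points are all above 0, from 0.19 for Hadhb (-0.09 with arrays centred on their median) to 1.82 for Cpt1a, and the Norrin points other than Cpt1a lie between -0.22 and 0.14.

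Other genes of lipid and mitochondrial metabolism were read from 9 lists. For these and the marker lists below, the shares of all genes at E10.5 are the reference. By limma 2.22% were lower and 1.85% higher, and 51.0% of estimates were below 0. With the replicate block 6.80% were lower, and 1163 of 18193 were higher. A list of 17 other genes held beta-oxidation enzymes, related acyl-CoA dehydrogenases such as Acad8, Acadsb, Ivd and Gcdh, and the electron carriers Etfa and Etfb. Of these 0 rose and 1 fell at E10.5, with a median of -0.07. With the replicate block 0 rose and 7 fell, Gcdh and Etfb among them. The call without the block was Acad11, an acyl-CoA dehydrogenase of the same family (8.51 in Norrin, 9.59 in wild type, change -1.08, adjusted p = 0.0031). Acads, the short-chain counterpart of Acadl and Acadm, averaged 9.46 in Norrin and 10.18 in wild type (adjusted p = 0.0658; 0.0010 with the block). Of the carriers of electrons to Etfdh, Etfa gave -0.27 and Etfb -0.48, neither past the threshold (adjusted p = 0.456 and 0.542; 0.0142 for Etfb with the block). At E8.5 0 of these 17 passed.

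Genes of fatty acid activation and carnitine metabolism fell in 2 of 15 cases and rose in 0, with a median of -0.24 (6 lower with the replicate block). Bbox1, the last enzyme of carnitine synthesis, averaged 6.81 in Norrin E10.5 and 8.58 in wild type E10.5, a change of -1.76 (SE 0.22, adjusted p = 0.0014). Acsl5, which activates long-chain fatty acids, averaged 9.42 in Norrin and 10.14 in wild type (-0.72, adjusted p = 0.0263). Slc22a5, the plasma membrane carnitine transporter, gave -0.24 (adjusted p = 0.495).

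Peroxisomal oxidation shortens very long and branched chains ahead of mitochondria. Of 14 such genes 2 fell and 0 rose, with a median of -0.31 (5 lower with the block). Acox2, an oxidase of branched chains, averaged 7.62 in Norrin E10.5 and 9.45 in wild type E10.5 (-1.83, adjusted p = 0.0048), and the thiolase Acaa1b 6.49 in Norrin and 7.60 in wild type (-1.11, adjusted p = 0.0065). Of 4 genes of ketone metabolism 0 passed, with a median of 0.01 (limma, 0 with the block).

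Genes of the TCA cycle and respiratory chain are the downstream users of acetyl-CoA and electrons. Of these, 22 of 22 had estimates below 0 at E10.5, against 51.0% of all genes. Their median was -0.27, and 2 fell. These were Ndufs1, a subunit of complex I (-0.52, adjusted p = 0.0375), and Fh1, fumarase (-0.46, adjusted p = 0.0413). With the block 7 fell. At E8.5 15 of 22 had estimates above 0, with a median of 0.05, and 0 passed.

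Partners and coactivators of PPARs had a median of 0.00 over 14 genes at E10.5, with 0 higher and 1 lower. With the block 1 was higher and 2 lower. The call without it was Sirt3, a mitochondrial deacetylase (-0.65, adjusted p = 0.0441). Rxra, the partner of Ppara on DNA, gave -0.21 (adjusted p = 0.856), and the coactivator Ppargc1a -0.46 (adjusted p = 0.0899; 0.0334 with the block). Ppard and Pparg, the other PPARs, gave 0.08 and 0.52, with adjusted p of 0.941 and 0.863. Of 12 other PPARA targets 0 passed (limma, 2 higher and 2 lower with the block), with a median of -0.02. They diverged: Pdk4, which restrains glucose oxidation, had a change of -0.83 (adjusted p = 0.120; 0.0026 with the block), and Fabp1, a fatty acid binding protein, 1.47 (adjusted p = 0.161; 0.00015 with the block).

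**Figure D4:**
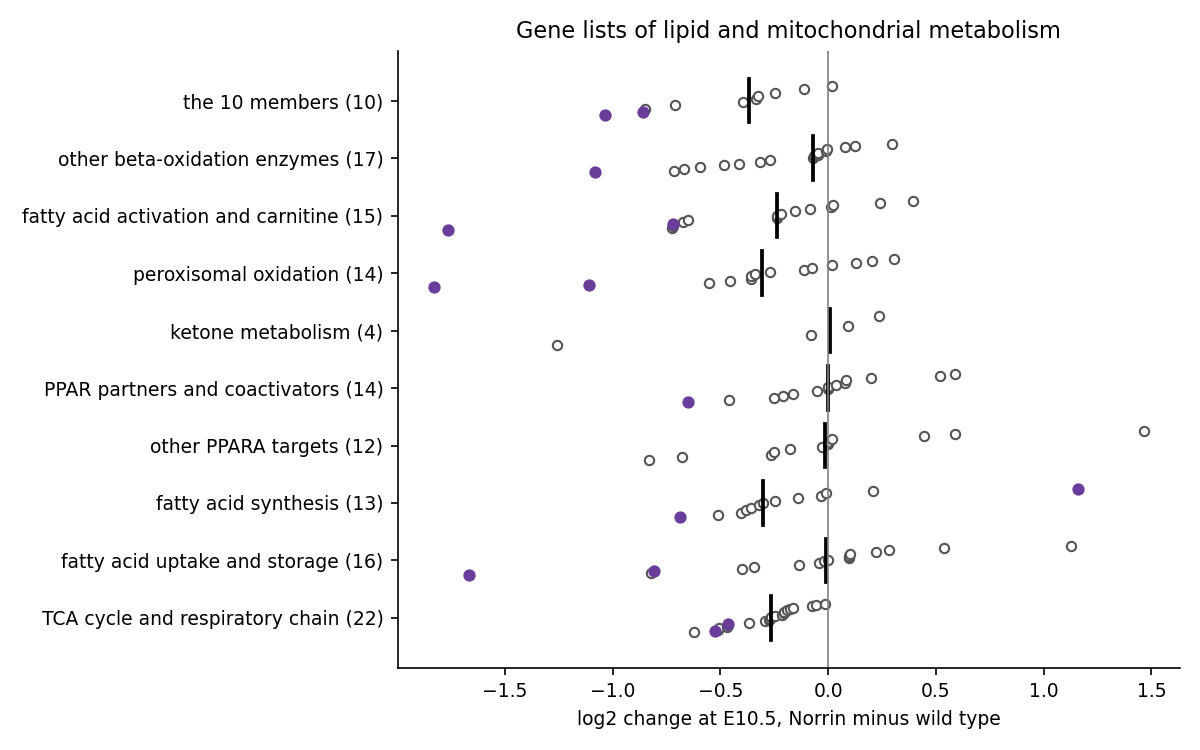
Log2 change at E10.5, Norrin minus wild type, of every measured gene of the 10 members and of 9 lists of lipid and mitochondrial metabolism, 1 point per gene with its number in brackets, filled where the adjusted p was under 0.05, and a bar at the list median. The TCA cycle and respiratory chain genes all lie below 0, with a median of -0.27, and the PPARA target list spreads from -0.83 to 1.47.

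Markers of the tissue's cell types also differed at E10.5. Estimates were mostly below 0 for visceral endoderm and erythroid markers, and mostly above 0 for mesenchyme and parietal endoderm. Of 15 visceral endoderm markers 1 rose and 4 fell (8 lower with the block), 11 had estimates below 0, and the mean log2 level of the list was 12.23 to 12.32 in Norrin pools, against 12.51 to 12.82 in wild type pools. The 4 that fell were Apom (-1.40), Apoa4 (-0.94), Apoa1 (-0.78) and the transcription factor Hnf4a (-0.71, adjusted p = 0.0149), and Sox17 rose (2.97). Alb (-2.85), Lrp2 (-0.89), Apob (-0.74) and Rbp4 (-0.34) were lower with the block alone, with block adjusted p of 0.0060, 0.0057, 0.00090 and 0.0445. Besides Sox17, the 3 with estimates above 0 were Foxa2, Amn and Dab2 (0.00, 0.08 and 0.20, adjusted p = 0.999, 0.945 and 0.747). Of 10 erythroid markers 6 fell and 0 rose (9 lower with the block), with list means of 9.98 to 10.03 in Norrin and 10.71 to 11.77 in wild type. Mesenchyme rose in 2 of 8 markers (3 with the block), with list means of 11.81 to 11.84 in Norrin and 11.30 to 11.46 in wild type. Parietal endoderm rose in 2 of 8 (5 with the block), with list means of 11.36 to 11.58 in Norrin and 10.84 to 11.17 in wild type. Their part in the changes of the oxidation genes was not tested.

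The remaining marker lists gave fewer calls by limma. The decidual list means were nonetheless 9.70 to 10.32 in Norrin E10.5 and 8.95 to 9.26 in wild type E10.5, without overlap. Embryo neural list means were 6.23 to 6.25 in Norrin and 5.92 to 6.17 in wild type. The endothelial, macrophage and trophoblast list means overlapped between the groups. Of 8 endothelial, 4 trophoblast and 6 embryo neural markers 0 passed by limma, of 6 macrophage markers 1 fell (Fcgr3, -1.98), and of 5 decidual markers 1 rose (Igfbp1, 2.52). With the block 3 decidual and 1 neural marker were higher, and the counts of the other 3 lists were the same. Without the Norrin E10.5 pool rich in trophoblast markers, Cpt2 and Acadl were still called lower, 2 of 10 members, against 318 of 18193 genes. At E8.5 the visceral endoderm list had 1 marker higher (Sox17, 2.71) and 1 lower (Apoa4, -1.18), and list means of 12.13 to 12.33 in Norrin, against 12.25 to 12.39 in wild type. The other marker lists had 0 calls at E8.5 by limma without the block. With the block 3 visceral endoderm markers were lower (Apoa4, Afp and Apob), Pdgfra of mesenchyme and Igfbp1 of decidua were higher, and the remaining lists had 0.

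**Figure D5:**
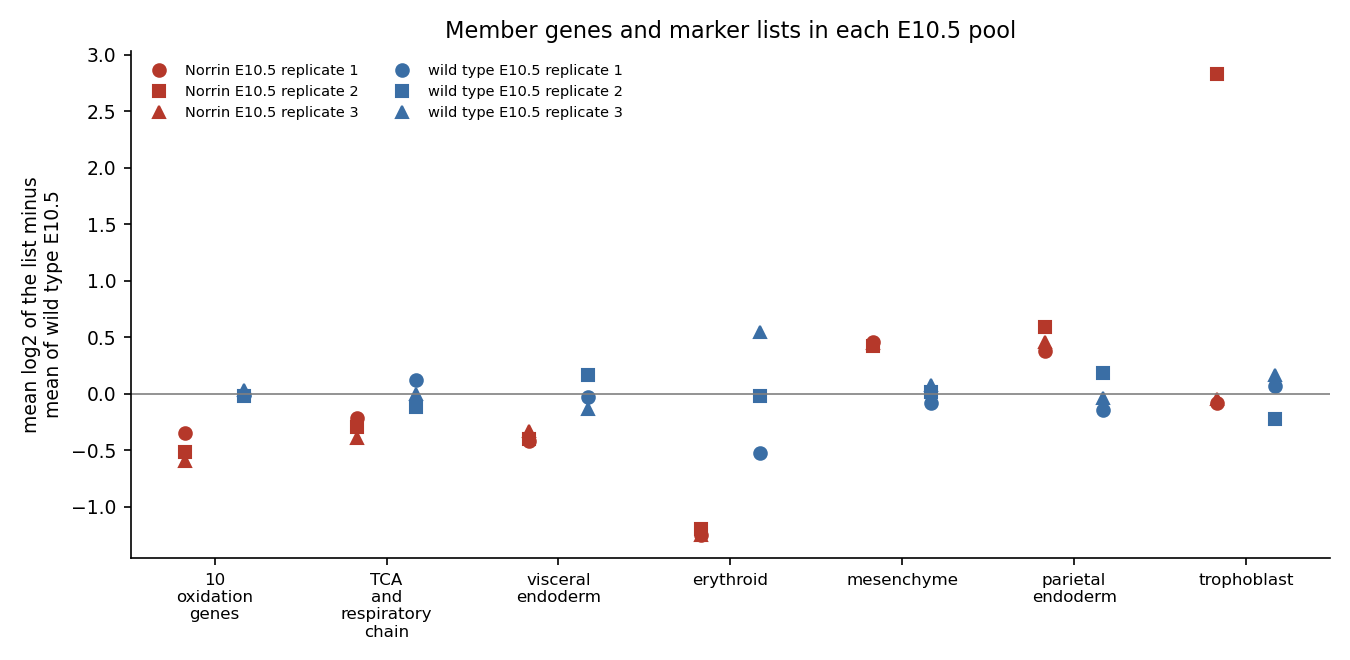
Mean log2 level of the 10 oxidation genes and of 6 gene lists in each E10.5 pool, less the mean of the 3 wild type E10.5 pools, Norrin in red left of wild type in blue, with the symbol giving the replicate. The oxidation genes lie at -0.35, -0.52 and -0.59 in the Norrin pools, against -0.01, -0.02 and 0.03 in wild type, and trophoblast markers are high in Norrin replicate 2 alone.

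Correlations between members were mostly above 0 across the pools. After subtracting each stage's mean, 42 of 45 pairs of members had a Pearson correlation above 0 over the 12 arrays, with a median of 0.53. Over all pairs of the 9097 genes at or above the median level, 55.8% were above 0, with a median of 0.08. The arrays share the Norrin difference and their normalization. The highest were Hadhb with Acadvl (0.85), Hadhb with its divergent neighbour Hadha (0.85) and Acadl with Cpt2 (0.85). The 3 below 0 all held Etfdh, and the lowest was Etfdh with Cpt1a (-0.46). Among 9088 other genes at or above the median level, those most like the mean of the 10 members were Hebp1 (r = 0.95), Cmbl (0.94), Fmo4 (0.92), Glrx (0.91) and Rnf181 (0.91), over the same 12 arrays. The Norrin difference was part of the profile by which these genes were picked. Their Norrin changes at E10.5, from -1.90 for Cmbl to -0.71 for Rnf181, are therefore not a separate observation.

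On GRCm38.p6 the RefSeq genes lie on chromosome 4 at 107903982 to 107923589 (Cpt2), 1 at 66830839 to 66863309 (Acadl), 19 at 3322326 to 3385735 (Cpt1a), 15 at 85734910 to 85806851 (Ppara) and 9 at 108662136 to 108684642 (Slc25a20). Acadm and Etfdh lie on chromosome 3 at 153922353 to 153944643 and 79603788 to 79628767, and Acadvl on 11 at 70010183 to 70015428. The neighbours Hadha and Hadhb lie on chromosome 5 at 30119423 to 30154980 and 30155253 to 30184593.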

How the data were processed

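Total RNA of pooled yolk sacs was labelled with biotin and hybridised to Affymetrix mouse expression arrays. The authors deposited log2 expression values, and per the submitters' processing notes these came from RMA, with no version given in the sources used here. RMA corrects background, quantile-normalizes and summarises probe sets, which compresses differences near the floor and the top of the scale. Of 45101 probe sets, 34945 had 1 gene in the platform annotation, 932 several and 9160 were unnamed here; 64 were controls. The brightest probe set per gene was used (18193 genes). With arrays no read depth exists, and their number limits the precision.

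A linear model was fitted with limma 3.58.1 (lmFit and eBayes, R 4.3.3) to all genes with 1 mean per group over 12 arrays (8 residual degrees of freedom), and checked on simulated data. All p-values are two-sided, were adjusted by the Benjamini-Hochberg method across the genes, and were called under 0.05. They measure the spread between these pools. Adjusted p-values are from this fit unless another setting is named.

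Same-numbered Norrin and wild type pools deviated together from their group means (r = 0.726, 0.318 and 0.730 at E8.5 and 0.506, 0.209 and 0.219 at E10.5), so the replicate block within each stage is given beside results whose call it changes. Differently numbered pools correlated at -0.721 to 0.296 at E8.5 and -0.347 to 0.156 at E10.5. The labels give the numbers and do not say what they share. The block was thus chosen from these same values, and calls that need it rest on that choice.

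The members and lists were chosen with earlier results of these data known. Named genes were all members, up to 4 called genes with the largest change per list, and partners of members. Promoter windows are from RefSeq (GRCm38.p6; 10 of 10 members matched). Alternatives changed the block, arrays, level filter, scaling and probe set choice.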

Additional observations from a re-analysis of the deposited data

Results flagged for a closer look

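The difference of the Norrin effects on Cpt2 between the stages passed an interaction test, in a call that most alternatives lost. It held in 4 of 18 alternatives, with adjusted p from 0.0064 to 0.195 by limma. The difference, E10.5 minus E8.5, was -1.05 on the log2 scale (adjusted p = 0.0463 by limma), with an effect of -1.04 at E10.5 and 0.01 at E8.5. All 3 Norrin pools lay below all 3 wild type pools at E10.5, and the pools overlapped at E8.5. In the limma test of all 34945 probe sets of 1 gene, this probe set had an adjusted p of 0.0525. The other probe set of Cpt2 gave a difference of -0.34 (adjusted p = 0.947 in that test).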

How the results depend on the processing

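With the replicate block within each stage, 5 members in place of 2 were called at E10.5 and 2 in place of 1 in the difference of the Norrin effects, and the block changed no other member's call. Among all genes it called 257 in place of 14 at E8.5, 2400 in place of 741 at E10.5 and 376 in place of 17 in the difference. Other settings moved these counts to 5 (1 block across both stages) and 0 (only the 6 arrays of the stage) at E8.5, and to 3 (genes at or above the median level) and 37 (mean of all probe sets) in the difference. The level filter left 472 at E10.5, 2641 in place of 6895 between the Norrin stages and 1918 in place of 5915 between the wild type stages, with fewer genes tested. Leaving out 1 array gave 1 to 20 at E8.5, 353 to 894 at E10.5, lowest without Norrin E10.5 replicate 3, and 5 to 36 in the difference. Replicate numbers did not pair pools across stages, where same-numbered pools correlated at -0.304 to 0.204. The difference had 0 members called with 1 replicate block across both stages, with only genes at or above the median level, with all 12 arrays quantile normalized together and with the mean of all probe sets. Stage calls in Norrin were 4 with arrays centred on their median and 2 with the mean of all probe sets, in place of 1. In wild type they were 3 with arrays centred and 9 with the mean of all probe sets, in place of 5. With that mean 5993 of 18193 genes were higher between the Norrin stages and 5441 between the wild type stages. With that mean Hadhb in Norrin was 0.42 in place of -0.22 (adjusted p = 0.0246), since its dim probe set gave 1.09. Leaving out 1 array gave 0 called members at E8.5 each time, 1 to 3 at E10.5, 0 to 1 in the difference, 1 for the Norrin stages and 4 to 7 for the wild type stages. Of 945 single-gene values under the alternatives, 898 kept their side of the threshold, 23 gained a call, 23 lost one and 1 reversed. Where no value above shows a cause, the cause was not tested. Dim probe sets limit what can be read, above all for Ppara.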

Other observations

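Fatty acid synthesis and uptake genes gave mixed calls at E10.5. Of 13 synthesis genes 1 rose and 1 fell, with a median of -0.30 (1 higher and 3 lower with the replicate block). Their estimates were below 0 in 11 genes and above 0 in 2, and 51.0% of all genes were below 0. Prkaa2, a catalytic subunit of the energy sensor AMPK, which restrains synthesis, averaged 9.81 in Norrin and 8.65 in wild type (change 1.16, adjusted p = 0.0069 by limma). The elongase Elovl6 averaged 9.43 in Norrin and 10.12 in wild type (-0.69, adjusted p = 0.0065). Acaca and Acacb, the enzymes that make malonyl-CoA, the inhibitor of Cpt1a, gave -0.32 and -0.36 (adjusted p = 0.723 and 0.336; 0.0488 for Acacb with the replicate block).

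Of 16 uptake and storage genes 0 rose and 2 fell at E10.5, with a median of -0.01 (1 higher and 4 lower with the replicate block). The fatty acid transporter and acyl-CoA synthetase Slc27a2 averaged 9.88 in Norrin and 11.54 in wild type (-1.67, adjusted p = 0.0153). It averaged 6.91 in Norrin and 8.29 in wild type at E8.5 (-1.38, adjusted p = 0.296; 0.0235 with the replicate block). The lipase Lipe averaged 6.12 in Norrin E10.5 and 6.93 in wild type E10.5 (-0.81, adjusted p = 0.0255).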
